A study of Mus musculus with 10 samples.

Results

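Ligands of the EGF family and the receptor tyrosine kinases for EGF, PDGF, FGF, HGF, IGF and GAS6 were followed through 10 genes. They were the ligand genes Hbegf, Ereg and Tgfa and the receptor genes Egfr, Pdgfra, Pdgfrb, Fgfr1, Met, Igf1r and Axl. These are 10 of the 18193 genes measured. Every probe set annotated to 1 of these symbols alone was taken, which gave 30 of the 45101 probe sets on the array. Of these, 23 reached the level required for testing (a mean log2 value of 3.17, about 6.61 in signal units), among 22854 probe sets tested in all. The 10 genes each kept at least 1 probe set. The 7 that did not reach it were 4 of the 7 for Egfr, 2 of the 3 for Tgfa and 1 of the 2 for Axl, and their highest signal on any array was 16.2.

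The cells were Lewis lung carcinoma (LLC) cells, a C57BL/6 mouse tumour line, stably carrying TDAG8, a proton-sensing G protein-coupled receptor encoded by Gpr65 (the TDAG8 line), or the control vector (the control line). After 12 h without serum in medium at pH 7.4, both lines were sampled (before treatment) or moved to medium with bovine serum albumin at pH 6.4 or pH 7.4 for 4 h or 12 h. Each combination of line and condition was measured on 1 Affymetrix Mouse Genome 430 2.0 array, 10 in all, with equal amounts of RNA mixed from 4 separate cultures. Mixing averages the cultures, so the spread between them cannot be seen. There were no replicates, so conditions matched between arrays stood in for them, and a p-value here reflects only how far matched differences vary. The sources used here do not give the promoter of the transgene or say whether each line was 1 clone.

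The EGF family ligands are made as membrane-anchored precursors that ADAM proteases release. HB-EGF and epiregulin bind both EGFR and ErbB4, and TGF-alpha binds EGFR. The PDGF receptors are typical of mesenchymal cells, FGFR1 binds fibroblast growth factors, MET is the receptor for hepatocyte growth factor, IGF1R binds the insulin-like growth factors and AXL binds GAS6. Activated receptors recruit adaptors such as Grb2 and Sos1, which lead to Ras and ERK, and they are limited by ubiquitin ligases and by transmembrane inhibitors.

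Array medians ranged from 11.7 to 13.8. The Gpr65 probe set read 0.9 to 5.3 in the TDAG8 line and 0.3 to 4.9 in the control line, below the level for testing, so it gives no check of the line labels. Of 6 mesenchymal markers 5 read 50 or more on every array. Of 8 epithelial markers 1 did, and of 6 lung epithelial markers 0 did, with a summed signal of 25.8 to 55.8. The defining lung epithelial genes Sftpc, Sftpa1, Scgb1a1 and Nkx2-1 were below the level for testing. Leukocyte (8 genes) and endothelial (6 genes) markers summed to 86.9 to 125 and 24.4 to 39.7, and none of either list read 50 on every array. Of 8 fibroblast markers, a list that holds Pdgfra and Pdgfrb, 5 read 50 or more on every array. Col1a1 and Thy1 of this list were below the level for testing.

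One promoter is shown because the data turn on Pdgfra, the receptor gene with the largest passing difference at acid pH. The RefSeq promoter table matched 6 of the 10 members. The window covers 250 bases before and 50 after the annotated start of Pdgfra (GRCm38.p6, plus strand, chr5:75152001-75152300), and the capitals mark the core of a cAMP response element (CRE), TGACG or its reverse complement.

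Pdgfra: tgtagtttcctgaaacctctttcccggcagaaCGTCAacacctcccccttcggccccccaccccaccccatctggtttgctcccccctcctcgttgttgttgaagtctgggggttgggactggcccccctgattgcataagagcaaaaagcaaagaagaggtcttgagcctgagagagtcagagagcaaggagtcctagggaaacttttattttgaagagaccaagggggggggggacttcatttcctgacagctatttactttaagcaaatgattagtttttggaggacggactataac

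Both strands were searched for the core TGACG, the whole CRE TGACGTCA, which contains the core, and the AP-1 site TGACTCA. The core was found once, on the minus strand at bases 33 to 37 of the window, and it occurs in 20.8% of the 32851 promoters of this length. The whole CRE and the AP-1 site had 0 matches in the window and occur in 1.79% and 5.2% of the promoters. These letters are a description of the sequence and not a binding site.

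The comparison of pH 6.4 with pH 7.4 asked which members responded to acid medium. The ligand genes Hbegf and Ereg rose, with all 4 matched pairs of arrays in that direction. Of the receptor genes, Pdgfra fell by its 2 probe sets with the higher mean signal, and 1 of 5 probe sets of Igf1r rose. Of the 23 tested probe sets 4 rose (background 5.57% of all tested) and 2 fell (background 5.54%), by limma over 4 matched pairs, each pair being a block. The median log2 difference was 0.03 over the 23 and 0.01 over all tested probe sets. Probe sets of the same gene share a target and are not independent. All 6 calls needed both pairs at 12 h. Without the 12 h pair of the TDAG8 line 0 of the 23 passed, with 32 calls among all probe sets, and without that of the control line 0 of the 23 and 0 of all did. Without either 4 h pair 4 of the 23 passed, the same 2 probe sets of Hbegf and 2 of Pdgfra.

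Heparin-binding EGF-like growth factor, encoded by Hbegf, had the largest difference among the members. Probe set 1418350_at read 34.5 before treatment, 125 and 393 at pH 6.4 (4 h and 12 h), against 23.5 and 28.7 at pH 7.4 in the TDAG8 line. In the control line it read 41.6 before treatment, 151 and 300 at pH 6.4, against 36.2 and 39.0 at pH 7.4. The 4 arrays at pH 6.4 all lay above the 4 at pH 7.4 and above both untreated arrays, and within each line the 12 h array at pH 6.4 was the highest. The rise was 7.03-fold on the log2(signal + 2.4) scale (log2 2.81, SE 0.28, 95% interval 2.14 to 3.49, limma adjusted p = 0.011). By pair it was 2.50 and 3.72 in the TDAG8 line (4 h and 12 h) and 2.09 and 2.95 in the control line. In bulk RNA more cells with a transcript and more transcript per cell cannot be told apart. Without the 12 h pair of the TDAG8 line the value was 2.51 (adjusted p = 0.0531), and without that of the control line 2.77 (adjusted p = 0.0625).

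The second Hbegf probe set, 1418349_at, was also higher at pH 6.4 in every matched pair. It did not share the order of the lines seen with 1418350_at at pH 6.4 for 4 h and at pH 7.4 for 12 h. In the TDAG8 line its signals were 15.1 before treatment, 51.9 and 124 at pH 6.4, against 14.1 and 18.7 at pH 7.4. In the control line they were 26.8, then 50.4 and 105 at pH 6.4 and 16.9 at both times at pH 7.4. No array at pH 7.4 exceeded 18.7 and none at pH 6.4 fell below 50.4. The fitted log2 difference was 2.13 (SE 0.23, limma adjusted p = 0.0117).

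Epiregulin, encoded by Ereg and measured by 1 probe set, 1419431_at, read 51.8 before treatment, 104 and 206 at pH 6.4, against 50.7 and 45.3 at pH 7.4 in the TDAG8 line. In the control line it read 42.5, then 65.0 and 81.7 at pH 6.4, against 45.1 and 46.4 at pH 7.4. All 4 arrays at pH 6.4 were above all others, and those of the TDAG8 line were above those of the control line. The rise was 2.31-fold (log2 1.21, SE 0.27, 95% interval 0.55 to 1.87, limma adjusted p = 0.0455). It did not pass with the values as deposited (1.11, adjusted p = 0.0599) or with arrays centred on the median (1.15, adjusted p = 0.0542). It also did not pass with no filter on dim probe sets (adjusted p = 0.0986), with the pseudocount at the 5th percentile (adjusted p = 0.0552) or when any of the 4 pairs was left out (adjusted p = 0.0649 to 0.126).

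Transforming growth factor alpha, encoded by Tgfa, was dim. Its brightest probe set, 1450421_at, read 15.8 to 27.6 at pH 6.4 and 14.7 to 25.1 at pH 7.4, and the groups overlapped. The log2 difference was 0.23 (95% interval -0.27 to 0.72, adjusted p = 0.479). Probe sets 1421942_s_at (2.6 to 16.2) and 1421943_at (0.4 to 8.8) were not tested.

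**Figure D1:**
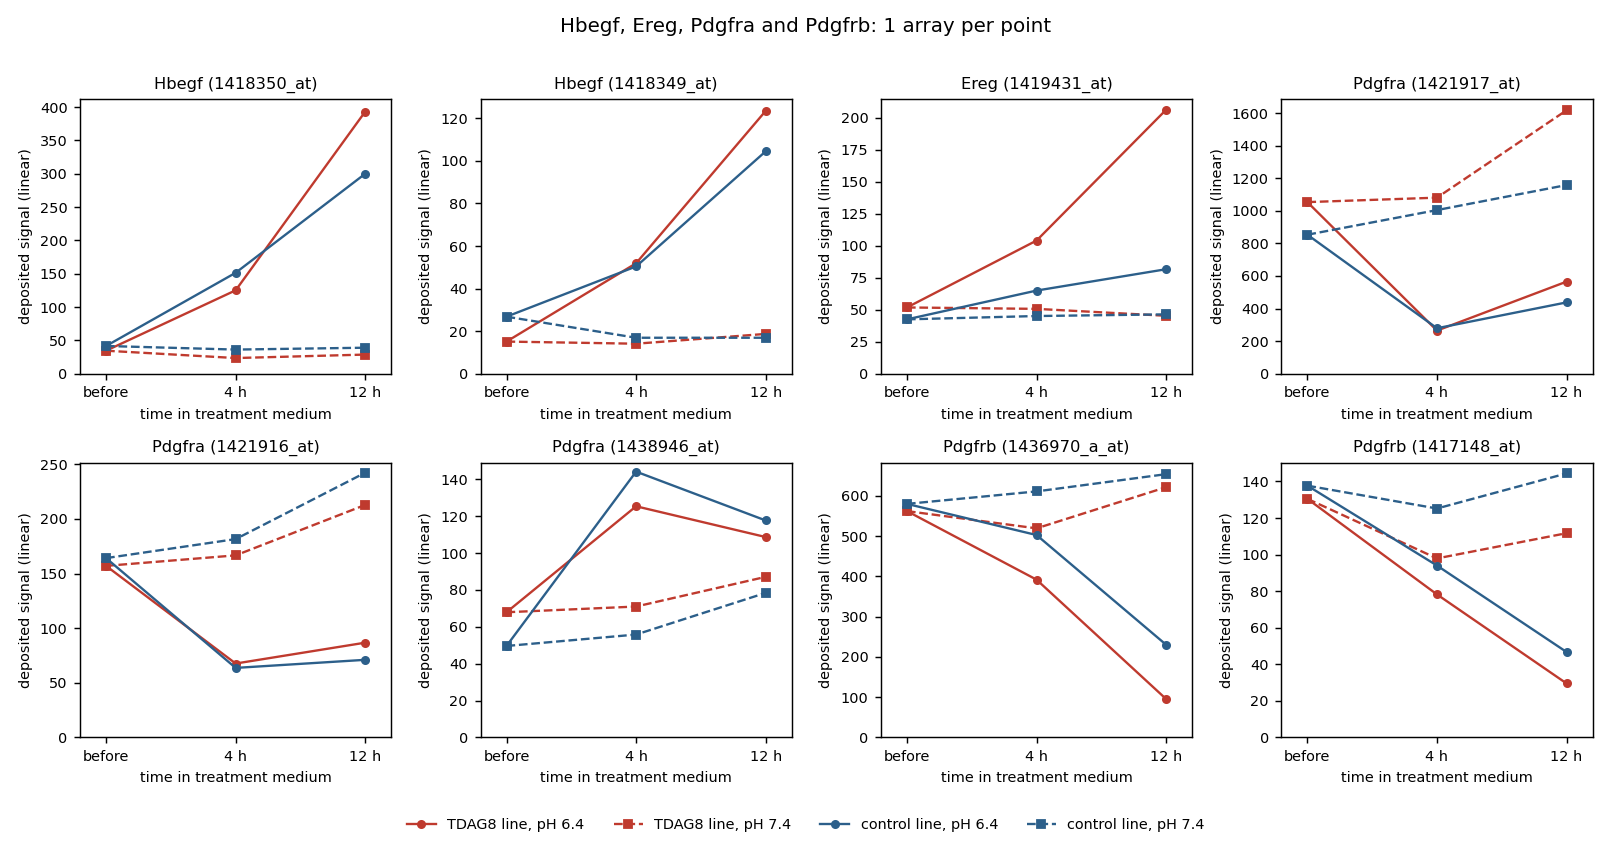
Deposited linear signal (vertical axis, from 0) of the probe sets of Hbegf, Ereg, Pdgfra and Pdgfrb by time in the treatment medium (horizontal axis, categories not to scale), 1 array per point. Red is the TDAG8 line and blue the control line. Circles with solid lines are pH 6.4, squares with dashed lines are pH 7.4, and the lines of each cell line start at its single untreated array. At pH 6.4 the 2 Hbegf probe sets reach 393 and 124 at 12 h in the TDAG8 line, Pdgfra 1421917_at lies at 265 to 565, and Pdgfrb 1436970_a_at reads 95.3 and 230 at 12 h.

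Pdgfra encodes the PDGF receptor alpha chain. By 1421917_at the TDAG8 line read 1054 before treatment, 265 and 565 at pH 6.4, against 1081 and 1617 at pH 7.4. The control line read 853 before treatment, 279 and 438 at pH 6.4, against 1005 and 1158 at pH 7.4. The 4 acid arrays were all below the 6 others, and the lowest array of each line was the one at 4 h. The fall was 3.25-fold (log2 -1.70, SE 0.14, 95% interval -2.05 to -1.35, limma adjusted p = 0.00939). Without the 12 h pair of the TDAG8 or the control line the value was -1.74 (adjusted p = 0.0534) or -1.78 (adjusted p = 0.061). The summed signal of the 8 fibroblast markers, this gene and Pdgfrb included, was 7423 to 9860 on the acid arrays and 9772 to 13466 at pH 7.4, and its part in this difference was not tested.

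The second Pdgfra probe set, 1421916_at, read 157 before treatment, 67.6 and 86.7 at pH 6.4, against 167 and 213 at pH 7.4 in the TDAG8 line. The control line read 164, then 63.6 and 71.0 at pH 6.4, against 182 and 242 at pH 7.4. The groups did not overlap, and the fall was 2.58-fold (log2 -1.37, SE 0.14, limma adjusted p = 0.011). The dimmest probe set, 1438946_at, went the other way. It read 67.9 before treatment, 125 and 109 at pH 6.4, against 71.0 and 87.1 at pH 7.4 in the TDAG8 line. The control line read 49.6 before treatment, 144 and 118 in acid medium, against 55.8 and 78.4 at pH 7.4. Its 4 acid arrays were all above the 6 others. The log2 difference was 0.85 (SE 0.20, 95% interval 0.35 to 1.36) and did not pass (limma adjusted p = 0.0528). It passed with arrays centred on the median (0.79, adjusted p = 0.0404), a filter at the 60th percentile (adjusted p = 0.03) and the pseudocount at the 40th percentile (0.81, adjusted p = 0.0355). The same held for limma's trend and robust options (adjusted p = 0.0262), no block (adjusted p = 0.0123) and pH by time in the model (adjusted p = 0.0209). It did not pass with the values as deposited (adjusted p = 0.0631), the pseudocount at the 5th percentile (adjusted p = 0.0634) or no filter (adjusted p = 0.115). Leaving out any 1 of the 4 pairs also lost it (adjusted p = 0.0843 to 0.14). The probe sets of Pdgfra thus disagree in sign, and the position that each one reads on the transcript is not analysed here.

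Pdgfrb encodes the PDGF receptor beta chain. Probe set 1436970_a_at read 562 before treatment, 392 and 95.3 at pH 6.4, against 520 and 622 at pH 7.4 in the TDAG8 line. In the control line it read 580, then 503 and 230 at pH 6.4, against 611 and 654 at pH 7.4. The acid arrays were all below the others, and the 12 h acid arrays of both lines were the lowest of all, with the TDAG8 line under the control line. By 1417148_at the signals were 131 before treatment, 78.2 and 29.5 at pH 6.4, against 97.9 and 112 at pH 7.4 in the TDAG8 line. The control line gave 138 before treatment, 94.0 and 46.7 in acid medium, against 125 and 144 at pH 7.4. Neither difference passed over the 4 pairs, at -1.22 (SE 0.43, adjusted p = 0.12) and -0.90 (SE 0.31, adjusted p = 0.114). Both passed when pH by time was added to the model (adjusted p = 0.0278 and adjusted p = 0.0131).

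Fgfr1, with 3 probe sets, read 797 to 917 and 492 to 882 at pH 6.4 in the TDAG8 and control lines by 1424050_s_at, and 939 to 1125 and 903 to 926 at pH 7.4. The lowest of the 10 arrays was the 12 h acid array of the control line (492). The log2 differences of 1424050_s_at, 1425911_a_at and 1436551_at were -0.44 (95% interval -0.89 to 0.01), -0.29 (-0.80 to 0.22) and -0.36 (-0.87 to 0.16), and none passed (adjusted p = 0.167 to 0.375).

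Igf1r had 5 tested probe sets. By 1426565_at it read 124 before treatment, 105 and 160 at pH 6.4, against 87.6 and 103 at pH 7.4 in the TDAG8 line. Signals in the control line were 98.4 before treatment, 122 and 156 in acid medium, against 88.8 and 102 at pH 7.4. The acid arrays were above the pH 7.4 arrays, but the untreated TDAG8 array was above 2 of the acid arrays. The rise was 1.48-fold (log2 0.57, SE 0.12, limma adjusted p = 0.0413). It did not pass with the values as deposited (0.48, adjusted p = 0.0755), with arrays centred on the median (0.52, adjusted p = 0.0973), with no filter (adjusted p = 0.107) or without any 1 of the 4 pairs (adjusted p = 0.102 to 0.133). The brightest probe set, 1452982_at, read 267 to 375 at pH 6.4 and 272 to 354 at pH 7.4, and its difference was 0.05 (95% interval -0.27 to 0.36). The other three, 1428967_at, 1446303_at and 1452108_at, differed by 0.21, -0.14 and 0.03, and none passed. The probe sets of Igf1r do not give 1 answer.

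For Met, Axl and Egfr the acid and pH 7.4 arrays overlapped. The log2 pH difference of Met was -0.05 (95% interval -0.38 to 0.28) by 1434447_at and 0.10 (-0.29 to 0.49) by 1422990_at. That of Axl was 0.02 (-0.40 to 0.44) by 1423586_at, with signals of 364 to 636 at pH 6.4 and 399 to 573 at pH 7.4. For Egfr, probe set 1460420_a_at read 34.0 to 45.9 at pH 6.4 and 27.0 to 50 at pH 7.4 and differed by 0.30 (-0.05 to 0.64). The dimmer Egfr probe sets 1454313_at and 1432647_at differed by 0.35 (0.02 to 0.67) and -0.17 (-0.70 to 0.35). None of these 6 passed (adjusted p = 0.138 to 0.956). These intervals leave room for differences of up to 0.70 on the log2 scale.

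**Figure D2:**
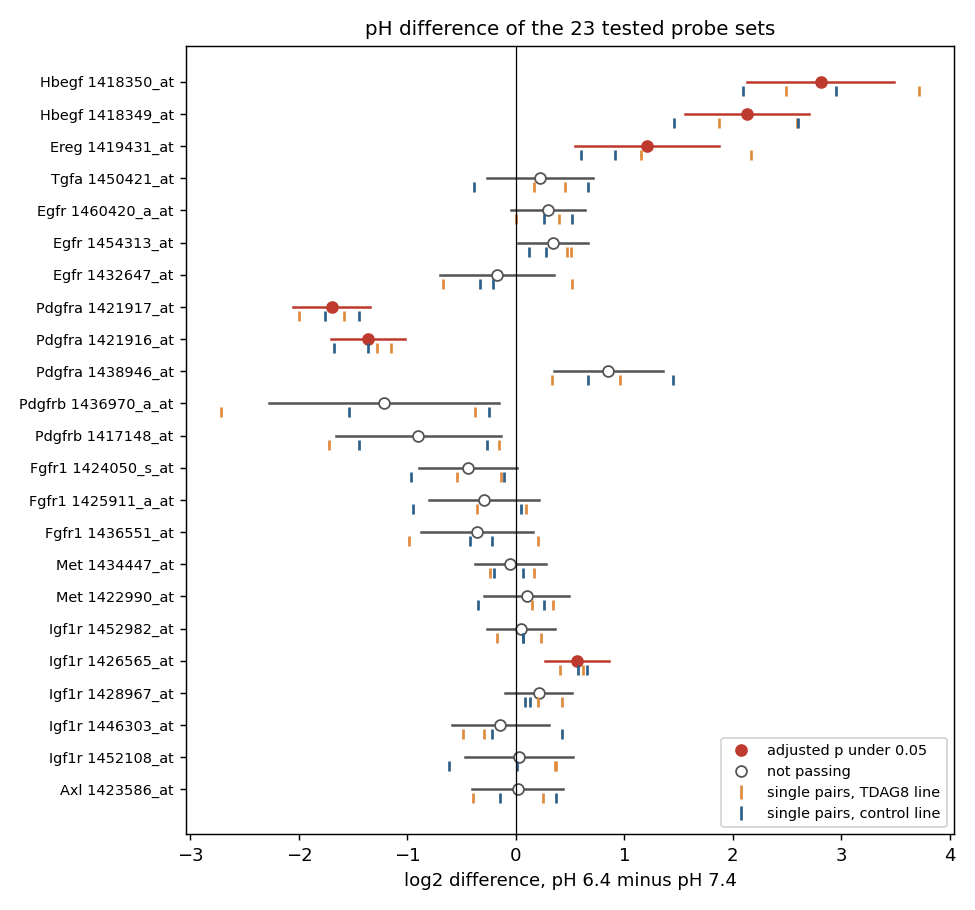
Log2 difference between pH 6.4 and pH 7.4 (horizontal axis) for the 23 tested probe sets (vertical axis). Large points are the limma estimates over 4 matched pairs with their 95% intervals, filled red where the adjusted p is under 0.05 and open otherwise, and the small ticks are the single pairs of the TDAG8 (orange) and control (blue) lines. The Hbegf probe sets lie at 2.81 and 2.13, Pdgfra at -1.70 and -1.37 with 1438946_at at 0.85, and the single pairs of Pdgfrb split into a group near 0 and a group from -1.45 to -2.72.

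By ranges, 5 of the 23 probe sets had all 4 normalised values at pH 6.4 above the 4 at pH 7.4 (background 13.3%), namely both of Hbegf and 1 each of Ereg, Pdgfra (1438946_at) and Igf1r (1426565_at). A further 4 had them all below (background 11.4%), namely 2 of Pdgfra and 1 each of Pdgfrb and Fgfr1. In single pairs, differences of at least 1 (log2) were counted, with no test. In the TDAG8 line at 4 h 3 probe sets were higher (background 4.34%) and 2 lower (5.66%), the former Hbegf and Ereg and the latter Pdgfra. At 12 h the same 3 were higher (background 6.33%) and 4 lower (7.76%), with both Pdgfrb probe sets added to those of Pdgfra. In the control line 3 were higher (background 4.21%) and 2 lower (6.14%) at 4 h, where Pdgfra 1438946_at took the place of Ereg. At 12 h 2 were higher (background 6.66%) and 4 lower (8.87%) in that line, Hbegf against Pdgfra and Pdgfrb.

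Whether the pH difference changed with time was tested as pH by time (2 residual degrees of freedom). The difference of Pdgfrb was larger in size at 12 h in both lines, though the test was not passed. By 1436970_a_at it was -0.37 and -0.25 at 4 h (TDAG8 and control line) and -2.72 and -1.54 at 12 h, and by 1417148_at -0.16 and -0.27 against -1.72 and -1.45. Hbegf was further apart at 12 h in the fit too, by 1.04 (1418350_at, 0.65 without the 12 h pair of the TDAG8 line) and 0.93 (1418349_at). None of the 23 passed by limma (background 0%, 0 of 22854), and 7 of the 23 and 5328 of all had an unadjusted p under 0.05. The estimates for Pdgfrb were -1.81 (SE 0.44, adjusted p = 0.139) and -1.37 (SE 0.19, adjusted p = 0.12, which no probe set went below). The median of the fibroblast markers had the same sign, at -1.13 over their 6 tested genes. These include Pdgfrb and also Pdgfra, which had the opposite sign (0.36 by 1421917_at). Of the 6 genes 4 had an unadjusted p under 0.05 by limma and none passed. The summed signal of the 6 list genes other than Pdgfra and Pdgfrb was 9204 and 8037 at pH 6.4 against 9298 and 8156 at pH 7.4 after 4 h (TDAG8 and control line). After 12 h it was 6763 and 7721 against 11227 and 10830, and the part of these genes in the difference of Pdgfrb was not tested. With a filter at the 60th percentile 1417148_at passed (adjusted p = 0.0318), as did Hbegf 1418349_at (adjusted p = 0.0487). With limma's trend and robust options, which let the variance follow the mean and damp outlying variances, both Pdgfrb probe sets, Fgfr1 1424050_s_at and Axl passed (adjusted p = 0.0102 to 0.0451).

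Other members had lower pH differences at 12 h than at 4 h in estimates that did not pass. The 3 probe sets of Fgfr1 differed between the times by -0.63, -0.72 and -0.69, Axl by -0.58, Pdgfra 1438946_at by -0.71 and Tgfa by -0.67. Axl, for example, read 636 and 550 at pH 6.4 after 4 h and 441 and 364 after 12 h in the TDAG8 and control lines. The estimate for Ereg was 0.66, but 0.04 (adjusted p = 0.959) without the 12 h pair of the TDAG8 line, 0.39 without the 4 h pair of the control line and 1.29 without its 12 h pair. For Pdgfra 1421917_at it was 0.36. Over the 23 probe sets the median was -0.21, and over all tested probe sets it was 0.02 (0.17 over all with arrays centred on the median).

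Over both media, 12 h against 4 h gave 0 calls among the 23 by limma (background 0% higher and 0% lower), with 1 of the 23 and 2583 of 22854 under an unadjusted p of 0.05. That 1 was Pdgfra 1421917_at (0.61, SE 0.16, adjusted p = 0.44), which was higher at 12 h in all 4 pairs. Hbegf 1418350_at differed by 0.65 (adjusted p = 0.44), with 1.497 and 0.84 in acid medium (TDAG8 and control line) and 0.28 and -0.01 at pH 7.4.

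The comparison of the lines asked which members depended on the line over all 5 conditions. Met was higher in the TDAG8 line in 5 of 5 matched pairs by both probe sets. By 1434447_at it read 295 before treatment, 199 and 288 at pH 6.4, against 249 and 248 at pH 7.4 in the TDAG8 line. The control line read 202, then 133 and 140 at pH 6.4, against 169 and 138 at pH 7.4. The lines overlapped by these signals only in that the lowest TDAG8 array (199) was under the highest control array (202). By 1422990_at they did not overlap, at 64.0 to 94.6 against 36.3 to 54.5. The log2 differences were 0.68 by both (SE 0.10 and 0.09), or 1.61-fold and 1.60-fold, and did not pass by limma (adjusted p = 0.0646 and adjusted p = 0.0575). They passed with a filter at the 60th percentile (adjusted p = 0.0161 and adjusted p = 0.0129), with the pseudocount at the 40th percentile (adjusted p = 0.0396 and adjusted p = 0.0347) and with trend and robust (adjusted p = 0.002 and adjusted p = 0.00686). With 1 probe set per gene Met passed by 1434447_at (adjusted p = 0.0427), and with the values as deposited only 1422990_at did (adjusted p = 0.0437). Neither probe set passed by limma with no filter (adjusted p = 0.196 and adjusted p = 0.178) or with arrays centred on the median (adjusted p = 0.0928 and adjusted p = 0.0687). The same held where no block was fitted (adjusted p = 0.23 and adjusted p = 0.246) and without any 1 of the 5 pairs (adjusted p = 0.127 to 0.2).

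By this fit 0 of the 23 probe sets passed in either direction (background 0.184% higher and 0.109% lower), with 7 of the 23 and 4169 of all under an unadjusted p of 0.05. Egfr 1460420_a_at read 36.5 to 50 in the TDAG8 line and 27.0 to 36.7 in the control line. It was higher in 5 of 5 pairs (0.42, SE 0.07, adjusted p = 0.0876) and passed with a filter at the 60th percentile (adjusted p = 0.0276). The dimmer Egfr probe sets 1454313_at (0.005, adjusted p = 0.986) and 1432647_at (-0.075, adjusted p = 0.825) did not share this difference. Each was higher in 2 of 5 pairs. Axl was higher in 5 of 5 pairs by 0.30 (SE 0.07, adjusted p = 0.136) and passed with trend and robust (adjusted p = 0.0244). Fgfr1 1424050_s_at was higher in 5 of 5 by 0.33, and the other Fgfr1 probe sets in 4 of 5 by 0.20 and 0.28. Both Pdgfrb probe sets were lower in 5 of 5 pairs, at -0.36 (1417148_at, adjusted p = 0.135) and -0.40 (1436970_a_at, adjusted p = 0.33). The latter ranged from -0.04 before treatment to -1.27 at pH 6.4 for 12 h. Of the 23 probe sets 5 were thus higher and 2 lower in 5 of 5 pairs. The share of all tested probe sets with 1 sign in 5 of 5 pairs is not given here, so these counts have no background beside them. Tgfa (0.23), Pdgfra 1421917_at (0.25) and Ereg (0.42) were higher in 4 of 5 pairs. Hbegf was higher in 1 of 5 by 1418350_at (-0.27) and in 3 of 5 by 1418349_at (-0.157). The epithelial markers summed to 2108 to 2887 in the TDAG8 line and 1296 to 2097 in the control line. Their part in the differences of Met and Egfr 1460420_a_at was not tested.

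**Figure D3:**
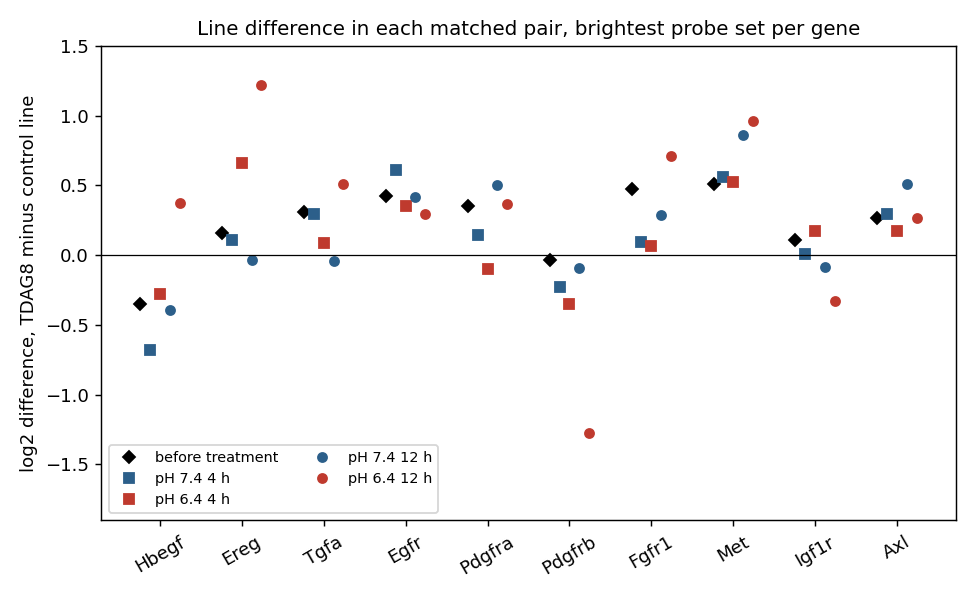
Log2 difference between the TDAG8 and the control line (vertical axis) in each of the 5 matched pairs for the brightest probe set of each of the 10 genes (horizontal axis). Black diamonds are before treatment, blue is pH 7.4, red is pH 6.4, squares are 4 h and circles 12 h. The 5 pairs of Met lie between 0.51 and 0.96, those of Egfr and Axl are all above 0, and at pH 6.4 for 12 h Ereg stands at 1.22 and Pdgfrb at -1.27.

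The question nearest to the stated aim was whether the pH difference departed between the lines (pH by line, 2 residual degrees of freedom). The largest estimate was that of Ereg, whose pH difference was 1.15 and 2.17 in the TDAG8 line (4 h and 12 h) and 0.60 and 0.92 in the control line. The departure was 0.90 (SE 0.44, 95% interval -0.22 to 2.02, adjusted p = 1), and 0.39 without the 12 h pair of the TDAG8 line. For Hbegf 1418350_at it was 0.59 (-0.82 to 1.99), and -0.03 without that pair. For Pdgfrb 1436970_a_at it was -0.65 (-2.94 to 1.64), and 0.52 without that pair. None of the 23 passed by limma (background 0%, 0 of 22854), and 0 of the 23 and 639 of all had an unadjusted p under 0.05. The intervals are wide enough to hold a departure of more than 1 on the log2 scale in either direction for Pdgfrb, so the fit does not show that the lines responded alike.

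From before treatment to pH 7.4 for 4 h, 0 of the 23 probe sets differed by 1 or more in either line. Of all tested probe sets 0.963% were higher and 1.32% lower by that much in the TDAG8 line. In the control line these shares were 1.76% and 1.45%. With shares this low, 0 of 23 does not set the members apart. The median of the 23 was -0.16 for the TDAG8 line and -0.07 for the control line, against 0.00 over all probe sets in both.

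**Figure D4:**
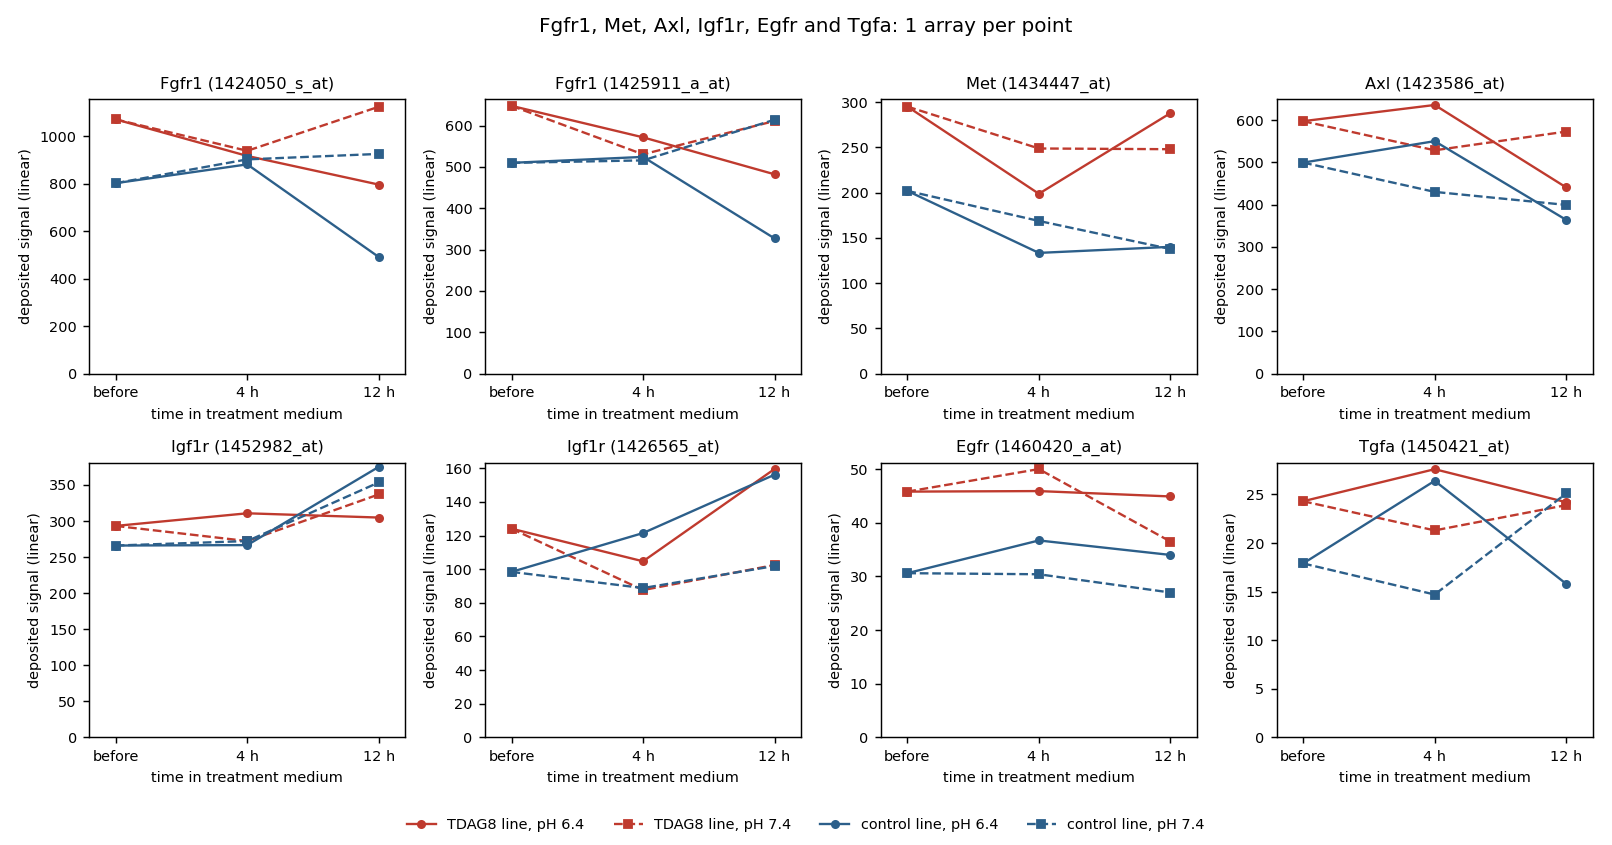
Deposited linear signal (vertical axis, from 0) of 2 probe sets each of Fgfr1 and Igf1r and the brightest of Met, Axl, Egfr and Tgfa by time in the treatment medium (horizontal axis, categories not to scale), 1 array per point. Red is the TDAG8 line, blue the control line, circles with solid lines pH 6.4 and squares with dashed lines pH 7.4. Met lies at 199 to 295 in the TDAG8 line and 133 to 202 in the control line, and Fgfr1 1424050_s_at has its lowest value of 492 on the 12 h acid array of the control line.

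Over the 10 arrays, which share 2 lines and 5 conditions, the normalised log2 values of Hbegf and Ereg correlated at 0.88 by their brightest probe sets. Those of Hbegf and Pdgfra correlated at -0.80, of Ereg and Pdgfrb at -0.91, and of Pdgfra and Pdgfrb at 0.44. The genes with the pattern most like Hbegf 1418350_at among 11573 ranked were Cbwd1 (0.99), Zcchc9 (0.99), Nfya (0.99), Ankra2 (0.99) and Inafm1 (0.99). Those most like Pdgfra 1421917_at were Arid4a (0.99), Ssh1 (0.99), Csnk1g1 (0.98), Glis2 (0.98) and Tab2 (0.98). These are Pearson correlations over 10 arrays, given as a description.

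Other genes of these pathways were counted by the brightest probe set of each gene, in the pH comparison by limma. The medians of the lists below stand beside 0.01 over all tested probe sets, of which 5.57% rose and 5.54% fell. Of the other EGF family ligands 3 of 8 were tested and 0 passed, with Btc (betacellulin) at 0.39 and Egf at -0.29 the largest. The signals of these 3 genes (Nrg2 is the other) were at most 22.9. Nrg1, Nrg3, Nrg4 and Epgn read at most 12.3 and were not tested, and Areg is not analysed here. Of the other ErbB receptors 2 of 3 were tested and 0 passed (Erbb3 -0.43, Erbb2 -0.15), and Erbb4 read at most 1.3. Of 9 sheddase genes and partners 7 were tested and 0 passed, with Rhbdf2, a partner of ADAM17, at 0.39 and Adam10 at -0.36 the largest. The median of these 7 was 0.05.

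Of 10 inhibitors and turnover genes, all tested, 1 rose and 2 fell, with a median of 0.22. Cblb, a ubiquitin ligase for receptor kinases, fell by 0.89 (SE 0.13, adjusted p = 0.0202), and Lrig1, a transmembrane inhibitor of ErbB receptors, fell by 0.79 (SE 0.13, adjusted p = 0.024). Lrig3, of the same family as Lrig1, rose by 0.67 (adjusted p = 0.0378) at signals of 13.5 to 35.4. Of 18 ligands of the member receptors 12 were tested, and 1 fell, Fgf21 (-1.23, adjusted p = 0.0156), at signals of 3.5 to 23.2. The median of the 12 was 0.10. Hgf, the ligand of MET, read at most 11.5 by its probe sets and was not tested.

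Of 15 other receptors of the same families 11 were tested, with a median of 0.16. Mertk, which like AXL binds GAS6, fell by 1.11 (SE 0.16, adjusted p = 0.0189), and Fgfrl1, an FGF receptor without a kinase domain, rose by 0.53 (adjusted p = 0.044). Of 6 IGF binding proteins 4 were tested and 0 passed, with Igfbp6 at 0.50 and Igfbp7 at 0.29 the largest and a median of 0.11. Of 19 receptor adaptors 17 were tested, and 2 rose and 3 fell, with a median of -0.10. Sos1, the Ras exchange factor recruited by Grb2, fell by 1.89 (SE 0.28, adjusted p = 0.0197), Crk by 0.94 (adjusted p = 0.039) and Irs1, the main substrate of the insulin and IGF1 receptors, by 0.87 (adjusted p = 0.0165). The other 3 tested probe sets of Sos1 had the opposite sign, at 1.05 (1421884_at, adjusted p = 0.105), 0.86 (1421885_at, adjusted p = 0.0834) and 0.98 (1421886_at, adjusted p = 0.137), and did not pass by limma, though all 3 passed with pH by time in the model (adjusted p = 0.035, 0.0144 and 0.0159). The fall of Sos1 thus rests on 1434389_at alone. A second probe set of Crk (1416201_at) fell by 0.91, but a further one (1425855_a_at) was at 0.04, as was one of Cblb (1437304_at) at 0.11, neither passing. Gab2, a docking protein, rose by 1.16 (SE 0.20, adjusted p = 0.0247), and Frs3, an adaptor of FGF receptors named in addition to the rule after its value was seen, rose by 0.60 (adjusted p = 0.0426). In the comparison of the lines, in both interactions and between the times 0 genes of these 8 lists passed. Without either 12 h pair all 11 named calls of the pH comparison were lost. Most were also lost by limma in other settings. Without the 4 h pair of the TDAG8 line only Fgf21 still passed (adjusted p = 0.0486), as with no filter (adjusted p = 0.0449). Without the 4 h pair of the control line Sos1 1434389_at passed (adjusted p = 0.0424), Gab2 stood at the limit (adjusted p = 0.05) and the other named calls did not pass. Sos1 1421884_at, of the opposite sign, also passed there by limma (1.47, adjusted p = 0.0456).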

How the data were processed

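The deposited table held 1 linear signal intensity per probe set and array. The mean after trimming 2% at each end was 100 on every array, so the authors' values were scaled to a target, and their software is not given in the sources used here. Between 2 and 11 values per array were 0. Of 45101 probe sets, 34945 had 1 gene symbol in the platform annotation, 932 several, 9160 none and 64 were controls. Probe sets with several symbols or none are not analysed here.

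Arrays were quantile normalised and values taken as log2(signal + 2.4), 2.4 being the 20th percentile of all values. Single-symbol probe sets whose mean reached the 40th percentile (22854, of 12161 genes) were tested with limma 3.58.1 in R 4.3.3 (lmFit, eBayes, Benjamini-Hochberg over all of them, adjusted p under 0.05). The fit used 4 matched pairs for pH and for time, and 5 for the line, each with its block. The number of arrays limits the precision. Alternatives changed the normalisation, filter, pseudocount, probe set rule, limma options, block and pairs used. The script was tested on simulated data. A fold refers to the log2(signal + 2.4) scale and understates changes of dim probe sets. The members and lists were chosen with earlier results of these data known. All members were named. From each list, passing genes were named, up to 4 with the largest difference, or, where none passed, the 2 largest in the pH comparison.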

Additional observations from a re-analysis of the deposited data

Results flagged for a closer look

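In 3 probe sets the pH difference had one sign in both lines at 4 h and the other sign in both lines at 12 h. The share of all tested probe sets with this pattern was not counted. The count of 3 thus has no background beside it and does not set the members apart. Each was tested as pH by time by limma and did not pass. Fgfr1 1425911_a_at was 0.09 and 0.04 at 4 h (TDAG8 and control line) and -0.36 and -0.95 at 12 h, a change of -0.72 (SE 0.26, adjusted p = 0.213). The other Fgfr1 probe sets did not share this change of sign. At 4 h 1424050_s_at was -0.14 and -0.11 and 1436551_at was 0.20 and -0.22 (TDAG8 and control line). Axl 1423586_at was 0.25 and 0.37 at 4 h and -0.40 and -0.15 at 12 h, a change of -0.58 (SE 0.19, adjusted p = 0.185). Met 1434447_at was -0.23 and -0.20 at 4 h and 0.17 and 0.07 at 12 h, a change of 0.34 (SE 0.17, adjusted p = 0.314). The second Met probe set, 1422990_at, did not share this order at 4 h, at 0.145 (TDAG8 line) and -0.35 (control line).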

How the results depend on the processing

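The count of members passing between pH 6.4 and pH 7.4 was 6. It was 3 with 1 probe set per gene and with the mean of a gene's probe sets, where 10 genes replaced 23 probe sets, and 0 to 4 when 1 matched pair was left out. It was 9 with pH by time in the model, 7 with trend and robust, with the block dropped, with the pseudocount at the 40th percentile and with the filter at the 60th, 5 with arrays centred on the median and with the pseudocount at the 5th percentile, and 4 with no filter and with the values as deposited. Over all probe sets 2537 passed, against 627 with no filter, 1220 with 1 probe set per gene, 1089 with the mean of probe sets, 3959 with trend and robust, 5895 with pH by time in the model and 0 to 677 with 1 pair left out. Of these calls 50.1% were higher, 39.3% with arrays centred on the median and 38% with the values as deposited. Between the lines 0 members passed, against 1 with the values as deposited, 1 with 1 probe set per gene, 1 with the mean of probe sets, 2 with the pseudocount at the 40th percentile, 3 with a filter at the 60th percentile and 3 with trend and robust. Over all probe sets 67 passed there (62.7% higher, 73.7% with arrays centred on the median and 75% as deposited). The count was 5 without a filter and 554 with one at the 60th percentile. It was 39 with the pseudocount at the 5th percentile, 165 with it at the 40th, 146 and 102 with 1 probe set and the mean per gene, 1062 with trend and robust, 12 where no block was fitted, 4 with the untreated arrays left out and 4 to 18 with 1 pair left out. For pH by time 2 members and 1629 probe sets passed with a filter at the 60th percentile, and 4 and 2643 with trend and robust. For pH by line and 12 h against 4 h the count stayed at 0 under each alternative run. With a limit of 0.58 the single pair counts were 8 at 4 h and 11 at 12 h for the control line (27.3% and 36.8% of all tested) and 6 and 10 for the TDAG8 line (26% and 35.5%). Apart from the smaller number of features or arrays, the cause of these shifts was not tested.

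Signs of small differences turned without passing in either fit. The pH difference was -0.005 for Met 1422990_at and -0.017 for Igf1r 1452108_at with the values as deposited, and that of Crk 1425855_a_at was -0.057 there and -0.018 with arrays centred on the median. With 1 pair left out it ranged from -0.122 to 0.011 for Met 1434447_at, -0.014 to 0.122 for Igf1r 1452982_at, -0.081 to 0.249 for Igf1r 1452108_at, -0.08 to 0.148 for Crk 1425855_a_at, -0.03 to 0.311 for Cblb 1437304_at and -0.10 to 0.16 for Axl. The pH by line estimates then ranged from -0.026 to 1.196 for Hbegf 1418350_at and -1.82 to 0.52 for Pdgfrb 1436970_a_at.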
